A study of Mus musculus with 4 samples.

Results

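The 2 ribosomal RNA (rRNA) genes of the mouse mitochondrial chromosome, mt-Rnr1 (12S rRNA) and mt-Rnr2 (16S rRNA), were measured in the hippocampus of control mice and of mice with a tibial fracture. They were chosen by name, 2 of 29300 gene rows in the count table, and with the contrast between surgery and control mice in these libraries already in view. Their difference between the groups is therefore given below as a description, with no test. All mice were male C57BL/6 animals aged 7 to 8 months that received isoflurane anesthesia and tramadol for analgesia. The control (sham) group had no operation, and the surgery group had a tibial fracture under the anesthesia. Hippocampal RNA was taken on day 1 after the procedure from 2 mice in each group, with 1 library per mouse. The surgery group differs from the control group by the whole operation, so the fracture and the rest of the procedure cannot be told apart.

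Both rRNAs come from the first stretch of the transcript that starts at the heavy-strand promoter of mitochondrial DNA. The tRNAs that lie before, between and behind them are cut out of this transcript, which frees the rRNAs. The 12S rRNA is the core of the small subunit of the mitochondrial ribosome and the 16S rRNA the core of the large subunit, and together with nuclear-encoded proteins they translate the mitochondrial mRNAs for subunits of the respiratory chain and the ATP synthase. Transcription of the heavy strand can stop behind the 16S gene, inside the gene of a leucine tRNA, or go on through the mRNA genes, so that rRNA and mRNA need not be made in equal amounts. Neurons depend strongly on mitochondrial respiration. Most, but not all, mature mitochondrial mRNAs carry poly(A) tails, while the rRNAs carry only short adenine extensions at most. This matters here because the libraries were made from RNA captured with oligo(dT) beads.

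In the GRCm38 (mm10) annotation of GENCODE, mt-Rnr1 (ENSMUSG00000064337) is a single exon of 955 nt at chrM:70-1024 on the + strand, and mt-Rnr2 (ENSMUSG00000064339) is a single exon of 1582 nt at chrM:1094-2675 on the + strand. The tRNA gene mt-Tv fills the gap between them from 1025 to 1093, and mt-Tl1, the leucine tRNA gene, follows at 2676 to 2750. The sequences of these junctions are shown because they are where each rRNA is separated from its neighbours. Capitals mark the 10 bases of each rRNA that adjoin a tRNA gene.
12S rRNA, last 60 bases, chrM:965-1024: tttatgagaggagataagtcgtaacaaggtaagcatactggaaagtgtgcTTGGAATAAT
mt-Tv, chrM:1025-1093: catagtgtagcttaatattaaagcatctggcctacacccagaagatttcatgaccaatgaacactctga
16S rRNA, first 60 bases, chrM:1094-1153: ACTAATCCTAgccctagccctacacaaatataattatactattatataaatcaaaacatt
16S rRNA, last 60 bases, chrM:2616-2675: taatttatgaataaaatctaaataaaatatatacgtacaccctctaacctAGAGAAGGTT
mt-Tl1, chrM:2676-2750: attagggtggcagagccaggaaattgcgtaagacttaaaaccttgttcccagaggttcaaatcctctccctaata

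Neither rRNA gene ends in a run of A. A longest run of A inside each gene is shown next, in capitals, because an internal run is a place where oligo(dT) can pair without a tail.
12S rRNA, chrM:685-729: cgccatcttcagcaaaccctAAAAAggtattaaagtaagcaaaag
16S rRNA, chrM:1468-1514: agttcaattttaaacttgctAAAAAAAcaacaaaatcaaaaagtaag
The 12S gene held 2 runs of 5 A, its longest, and the first is shown. A run of at least this length occurred in 62.9% of 3331 annotated transcripts within 10% of its length. The 16S gene held a run of 7, which occurred in 28.6% of 3065 transcripts of similar length, and 4 runs of 6 or more. Among the 12 mitochondrial mRNAs with a row in the table, 9 held a run of at least 5 and 4 held a run of at least 7. Both rRNA genes were low in G and C. The GC content was 35.8% for 12S and 35.4% for 16S, and 3.20% and 2.66%, respectively, of the 55450 annotated genes had a lower value. Their A content was 37.8% and 38.2%. Capture of either rRNA through these runs was not tested.

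The count table summed to between 15763432 and 18573386 counts per library. Of 37 mitochondrial genes in the annotation, 15 had a row: both rRNAs, 12 mRNAs and 1 tRNA. Libraries of the same group differed by more than counting noise, with a chi-square per degree of freedom of 13.4 in the control and 8.45 in the surgery pair. The change in a gene after surgery moved with its GC content (values below). Choroid plexus markers differed between mice of the same group, at a summed 123 and 5302 CPM (counts per 1000000 of the library total) in control mice 1 and 2 and 2044 and 3496 CPM in surgery mice 1 and 2. The choroid plexus level therefore did not follow the groups. Hippocampal excitatory neuron markers were present in all mice, at a summed 3282 and 3130 CPM in control and 2829 and 2688 CPM in surgery mice, and 1 of 7, Wfs1, fell, where 2.25% of all genes were called lower. Of these 7, 4 had a negative and 3 a positive log2 fold change (Neurod6 0.53, Zbtb20 0.44 and Prox1 0.43), with a median of -0.39. Of 5 astrocyte markers 1 was called higher, Aqp4, where 6.75% of all genes were, and 2 had a negative log2 fold change, with a median of 0.22. Of 5 microglia markers 1 was called higher, P2ry12, and 3 had a negative log2 fold change, with a median of -0.14. Of 4 neutrophil markers tested 1 was called lower, Ltf, and all 4 had a negative log2 fold change, with a median of -0.88. Neutrophil markers were low, at a summed 9.34 and 14.5 CPM in control and 2.09 and 9.71 CPM in surgery mice. The part of these cell types in the difference of the rRNAs was not tested. In bulk tissue, fewer cells of a type and less RNA per cell cannot be told apart.

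Both rRNAs took a larger share of the library in each surgery mouse than in each control mouse. For 12S rRNA, 16015 counts were found in control mouse 1 and 12447 in control mouse 2, against 45922 and 47003 in surgery mice 1 and 2. As a share of all counts these were 0.0912% (95% Wilson interval 0.0898% to 0.0926%) and 0.0670% (0.0658% to 0.0682%) in control mouse 1 and 2, and 0.291% (0.289% to 0.294%) and 0.284% (0.281% to 0.286%) in the surgery mice. The groups did not overlap, and the control mice lay farther apart than the surgery mice. Among all 17144 genes tested, 33.2% had both surgery mice above both control mice on the scaled level, so this alone does not set the rRNAs apart. The mean share rose from 0.0791% ± 0.0171 (SD, n = 2) to 0.287% ± 0.00549 (SD, n = 2), a ratio of 3.63. Over the 4 pairings of a surgery mouse with a control mouse, the ratio ran from 3.11 to 4.35. The intervals cover counting error only, and that error was far smaller than the difference between mice.

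For 16S rRNA, control mice 1 and 2 had 22859 and 20141 counts, against 56518 and 61289 for surgery mice 1 and 2. The shares of all counts were 0.130% (95% Wilson interval 0.128% to 0.132%) and 0.108% (0.107% to 0.110%) in control mouse 1 and 2, and 0.359% (0.356% to 0.362%) and 0.370% (0.367% to 0.373%) in the surgery mice. As for 12S, control mouse 1 was above control mouse 2, while the order of the surgery mice was the opposite of that for 12S. The mean share was 0.119% ± 0.0154 (SD, n = 2) in control and 0.364% ± 0.00792 (SD, n = 2) in surgery mice, a ratio of 3.05 with pairings between 2.75 and 3.41. Together the 2 rRNAs took 0.198% of all counts in control and 0.652% in surgery mice, a ratio of 3.28.

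**Figure D1:**
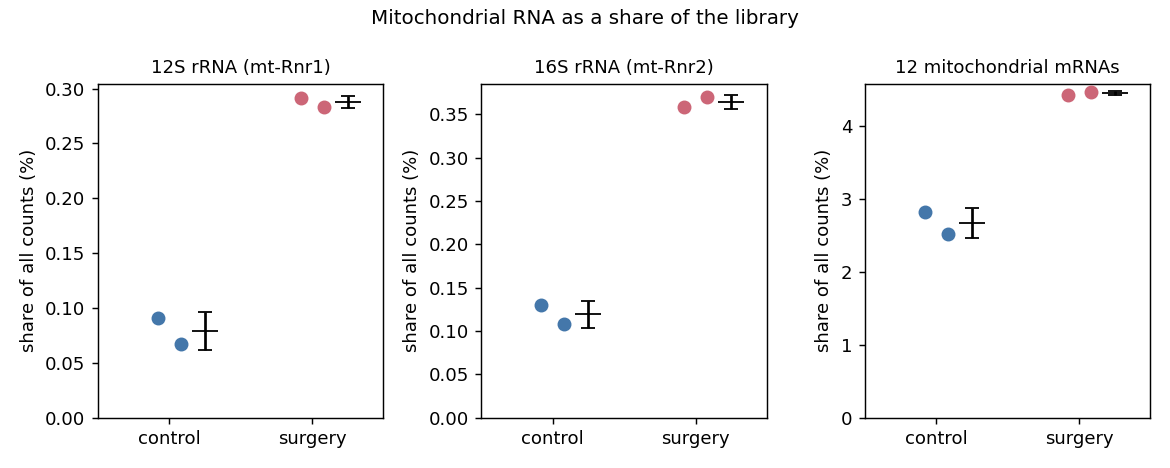
Share of all counts in percent for 12S rRNA, 16S rRNA and the 12 mitochondrial mRNAs summed; each point is a mouse, and the bar beside each group is its mean with the SD of 2 mice. The surgery mice lie above the control mice in each panel, with mean ratios of 3.63 for 12S, 3.05 for 16S and 1.67 for the mRNAs.

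The fit across all genes put the counts on a scale corrected for library composition (TMM, the trimmed mean of M values). The level of 12S rRNA was 930 and 681 CPM in control and 2880 and 2785 CPM in surgery mice, with a log2 fold change of 1.81 ± 0.14 (SE), which is 3.52-fold. Without 1 of the mice in turn the log2 fold change of 12S lay between 1.60 and 2.05, the higher value without control mouse 1. The level of 16S rRNA was 1327 and 1102 CPM in control and 3544 and 3632 CPM in surgery mice, with a log2 fold change of 1.56 ± 0.10 (SE), which is 2.95-fold, and from 1.43 to 1.70 without 1 mouse. Of the 17144 genes tested, 103 had a log2 fold change at or above that of 12S and 169 at or above that of 16S. The median log2 fold change of all genes tested was 0.01 on the same scale.

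The GC content moved with these values. The 151 nuclear genes within 1 percentage point of the GC content of 12S had a median log2 fold change of 0.86, and 49.7% of them were called higher (adjusted p under 0.05 by edgeR's quasi-likelihood test and at least 1.5-fold), against 6.75% of all genes tested. Of the 151 genes, 6 had a log2 fold change at or above that of 12S. Around 16S, 125 nuclear genes had a median of 0.94, 49.6% were called higher, and 13 were at or above 16S. When a smooth trend of each library on gene length and GC content was taken out, the log2 fold change was 0.93 ± 0.11 (SE) for 12S and 0.66 ± 0.08 (SE) for 16S. Both remained positive and were smaller. The part of GC content itself in the difference of the rRNAs was not tested.

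The mitochondrial mRNAs give the background against which the rRNAs can be read, since they share the chromosome and, apart from mt-Nd6 on the opposite strand, the direction of transcription. Their summed share of all counts was 2.67% ± 0.211 (SD, n = 2) in control and 4.46% ± 0.0289 (SD, n = 2) in surgery mice, a ratio of 1.67. The exact permutation test, two-sided, gave p = 0.333, which is the smallest value that 2 mice against 2 allow. Of the 12 mRNAs, 9 rose and 0 fell (0 also by DESeq2 or at an unadjusted p under 0.05) by edgeR's quasi-likelihood test (adjusted p under 0.05 and at least 1.5-fold), against 6.75% of all genes called higher, and the median log2 fold change was 1.09. After the length and GC correction 1 of 12 was called higher, where 70 of all 17144 genes were, and the median of the 12 was 0.29. Of the 12 mRNAs, 1 had a log2 fold change at or above that of 12S and 2 at or above that of 16S. With the correction, it was 1 for each.

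Among mRNAs for complex I, the NADH dehydrogenase, mt-Nd6 rose most, from 144 and 109 CPM to 483 and 577 CPM (log2 fold change 2.06 ± 0.15 SE, adjusted p = 0.0039, edgeR). It was the mRNA still called after the correction, at 0.98 (adjusted p = 0.021, edgeR). mt-Nd1, the gene next behind 16S and mt-Tl1, rose from 2679 and 2254 CPM to 5068 and 5026 CPM (1.03 ± 0.09 SE, adjusted p = 0.0043, edgeR). mt-Nd2 rose by 1.18 and mt-Nd5 by 0.62 on the log2 scale. With the length and GC correction the calls of mt-Nd1 and mt-Nd2 were lost, at 0.30 and 0.29, and mt-Nd5 turned to -0.14. mt-Nd5 also fell short of the 1.5-fold limit without control mouse 2, at 0.58, and without surgery mouse 2, at 0.54. mt-Nd3 rose by 1.67 from levels under 2 CPM. Its call was lost without control mouse 2, at 1.21, and with the correction, at 0.46. It was also not called by DESeq2, which gave it no adjusted p. mt-Nd4 had a log2 fold change of 0.55, under the 1.5-fold limit with an adjusted p of 0.0060 (edgeR), and mt-Nd4l one of 0.52 with an adjusted p of 0.38 (edgeR). With the correction these turned to -0.34 and -0.046. mt-Nd4 passed the fold limit, and so was called, with library totals alone (0.60), without control mouse 1 (0.63) and without surgery mouse 2 (0.59).

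For complex IV, the cytochrome c oxidase, mt-Co1 rose by 0.66, mt-Co2 by 1.15 and mt-Co3 by 1.18 on the log2 scale. mt-Atp6, a subunit of the ATP synthase, rose by 1.30, and mt-Atp8 was not analysed here. mt-Cytb, of complex III, had the smallest log2 fold change of the 12, 0.41 ± 0.07 (SE), with an adjusted p of 0.0097 (edgeR), below the 1.5-fold limit. With the correction mt-Cytb turned to -0.21, and the calls of mt-Co1, mt-Co2, mt-Co3 and mt-Atp6 were lost, at 0.12, 0.47, 0.54 and 0.41. The call of mt-Co1 was also lost without control mouse 2, at 0.57. mt-Tp, the proline tRNA and the 1 tRNA with a row, rose from 259 and 221 counts to 1288 and 1385 counts, by 2.59 ± 0.12 (SE) on the log2 scale (adjusted p = 0.0038, edgeR), and by 2.08 with the correction. The tRNA is 67 nt long, shorter than the 150 nt reads, and the part of longer precursor RNA in its count was not tested.

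Reads may also be split between a mitochondrial gene and its copies in the nuclear genome. Both rRNA genes shared 0% of their 75 nt windows with any other annotated transcript. mt-Co2, mt-Atp6, mt-Co3, mt-Nd3 and mt-Nd4l shared between 97.8% and 99.9% of theirs, nearly all with a row of pseudogenes on chromosome 1, and mt-Nd4 shared 61.5%. The levels of these 6 mRNAs cannot be told apart from how the reads were assigned. Only annotated transcripts were searched, so copies outside of them were not analysed here. The other 6 mRNAs, mt-Nd1, mt-Nd2, mt-Co1, mt-Nd5, mt-Nd6 and mt-Cytb, shared under 50% of their windows, the most for mt-Co1 at 39.8%. They had a median log2 fold change of 0.85, and 5 of the 6 were called higher. Without control mouse 2 there were 3 of 6 called, at a median of 0.75, and with the length and GC correction 1 of 6, at a median of 0.21.

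Within each mouse, the rRNAs can be compared with the mRNAs per kilobase of gene, where the depth of the library cancels out. The ratio of rRNA to the 12 mRNAs, in counts per kilobase, stood at 0.346 and 0.307 for the controls, against 0.646 and 0.644 after surgery. The surgery mice were nearly equal and both were above the control mice. The mean ratio was 1.98 times as high in surgery as in control mice, and 1.96 times as high with only the 6 mRNAs that share under 50% of their windows in the denominator. Without mt-Co1, the most abundant of the mRNAs, the ratio to the other 11 was 1.95 times as high. For 12S alone the ratio to the mRNAs was 2.19 times as high, and for 16S alone 1.83 times.

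The ratio of 16S to its neighbour mt-Nd1, which follows the tRNA gene shown above where heavy-strand transcription can stop, stood at 0.300 and 0.296 per kilobase for the controls, against 0.423 and 0.437 after surgery, 1.44 times as high. The 2 rRNAs also moved relative to each other. The ratio of 16S to 12S per kilobase was 0.862 and 0.977 in control and 0.743 and 0.787 in surgery mice, 0.832 times as high after surgery. All 4 values were below 1, and the nearest values of the groups, 0.787 and 0.862, lay closer together than the 2 control mice. Of all counts on mitochondrial rows, the rRNAs took 6.88% ± 0.546 (SD, n = 2) in control and 12.7% ± 0.0309 (SD, n = 2) in surgery mice.

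**Figure D2:**
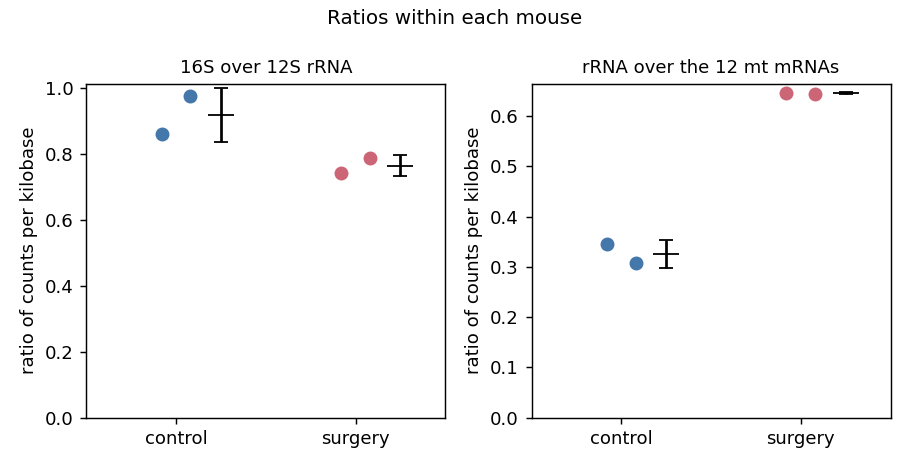
Ratio of counts per kilobase of gene within each mouse, 16S over 12S rRNA and both rRNAs over the 12 mitochondrial mRNAs; points are mice and bars the mean with the SD of 2 mice. The first ratio is lower in the surgery mice, 0.743 and 0.787 against 0.862 and 0.977, and the second is higher, 0.646 and 0.644 against 0.346 and 0.307.

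In order of level per kilobase among the 15 mitochondrial rows, 12S rRNA was 7th in control and 5th in surgery mice, and 16S rRNA was 8th in both. In control mice, 12S was at 974 and 713 CPM per kilobase and 16S at 839 and 697, which overlap. In surgery mice they were at 3015 and 2916 and at 2240 and 2296, and did not overlap. mt-Nd5, which lay next above 12S in control mice at 1595 and 1527 CPM per kilobase, was at 2259 and 2527 in surgery mice, below 12S and overlapping with 16S. mt-Co1 was at the top in both groups, at 8515 and 7539 in control and 12661 and 12752 in surgery mice. These libraries were made by poly(A) capture and do not give the total rRNA of the tissue.

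Along the + strand, the log2 fold change tended to be lower with distance from the promoter, but not steadily. The 2 rRNA genes come first and changed by 1.81 and 1.56, mt-Nd1 and mt-Nd2 follow with 1.03 and 1.18, and mt-Co1 with 0.66. mt-Co2, mt-Atp6, mt-Co3 and mt-Nd3, in the middle, were higher again at 1.15, 1.30, 1.18 and 1.67. mt-Nd4l, mt-Nd4, mt-Nd5 and mt-Cytb lie last with 0.52, 0.55, 0.62 and 0.41. Over the 13 genes of this strand with a row, Spearman's rho of gene order and log2 fold change was -0.66, and over the 11 mRNAs alone it was -0.51. In the 5 + strand mRNAs that share under 50% of their windows it was -0.90. The genes share the same 4 libraries, and GC content also went with the log2 fold change, with a rho of -0.61 over the 13 genes and -0.52 over the 11 mRNAs. With the length and GC correction, the rho with gene order was -0.73 over the 13 genes and -0.55 over the 11 mRNAs alone. The 13 genes include the 2 rRNAs, which come first and were chosen with their difference in view. The genes of the opposite strand, mt-Nd6 and mt-Tp, are read from the light-strand promoter and had the highest log2 fold changes of the 15 rows, 2.06 and 2.59. 12S was next, followed by mt-Nd3 and 16S. Whether the reads were counted by strand is not given in the sources used here. Reads of heavy-strand transcripts, which lie opposite mt-Nd6 and mt-Tp, therefore cannot be told apart from these genes.

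**Figure D3:**
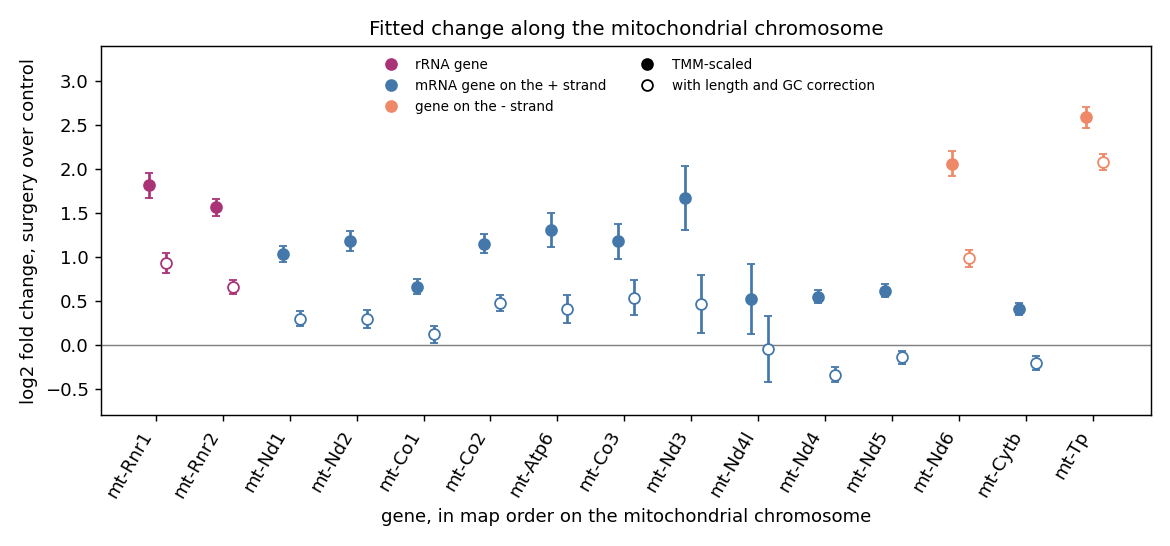
Log2 fold change of surgery over control mice for the 15 mitochondrial genes in map order, with its SE, from the TMM-scaled fit (filled) and with the length and GC correction (open). The rRNA genes stand at 1.81 and 1.56, mt-Cytb is lowest at 0.41, and mt-Nd6 and mt-Tp on the - strand are highest at 2.06 and 2.59; with the correction 4 mRNAs lie below 0.

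Other RNAs without a poly(A) tail were set beside the rRNAs, as RNAs that oligo(dT) capture should not retain. CT010467.1, an annotated nuclear rRNA row, was at 3981 and 6014 counts in control and 2777 and 9441 counts in surgery mice. The groups overlapped, and the log2 fold change was 0.39 ± 0.48 (SE, adjusted p = 0.59, edgeR). Gm26917 was at 269 and 318 counts against 190 and 405, and Rn7sk, the RNA of the 7SK particle that holds back transcription elongation, at 21 and 77 against 15 and 89. Rpph1, the RNA of nuclear RNase P, was at 3 and 11 against 5 and 15. In all 4 rows mouse 2 had more counts than mouse 1 in each group. Both mitochondrial rRNAs had the opposite order in the control mice and the same order of counts in the surgery mice.

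Of 43 nuclear rows tested with an annotated class of RNA that lacks a tail (small nuclear, small nucleolar, ribosomal and the like), 5 were called higher and 1 lower, 11.6% and 2.33%, against 6.75% and 2.25% of all genes. The median log2 fold change was 0.30, and none of the 6 called rows reached a mean of 10 CPM. Of 13 replication-dependent histone genes, 0 were called by edgeR's quasi-likelihood test, with a median log2 fold change of 0.34. There were 2 higher and 1 lower at an unadjusted p under 0.05, and 0 higher and 1 lower by DESeq2. The share of all genes at the unadjusted limit was not analysed here. Histone mRNAs of this kind typically end without a tail, but whether the transcripts counted here carried one was not tested. Over both lists, DESeq2 called 0 rows higher. Without control mouse 2 there was 1 row called higher and without surgery mouse 2 there were 2, and without control mouse 1 there were 0 called lower.

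**Figure D4:**
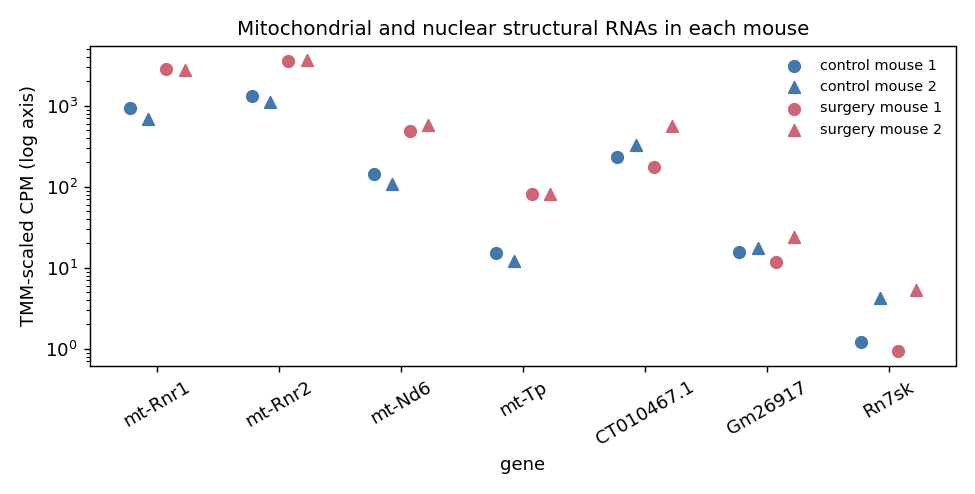
TMM-scaled CPM on a log axis in each mouse for the mitochondrial rRNAs, mt-Nd6 and mt-Tp and for the nuclear rows CT010467.1, Gm26917 and Rn7sk; circles are mouse 1 and triangles mouse 2 of each group. The mitochondrial rows are higher in both surgery mice, while in the nuclear rows the groups overlap and mouse 2 is above mouse 1.

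The nuclear genes that make, trim and modify these rRNAs were called about as often as all genes. Of 57 listed genes for mitochondrial DNA maintenance, transcription and rRNA maturation, 56 were tested, 4 rose and 2 fell (7.14% and 3.57%, against 6.75% and 2.25% of all genes), and the median log2 fold change was -0.07. An adjusted p under 0.05 (edgeR), at any fold, was reached by 16 of the 56, and at an unadjusted p under 0.05 there were 11 higher and 13 lower. The shares of all genes given here are for calls with the fold limit. Shares of all genes at these wider limits were not analysed, so these counts cannot be read against them. Slirp was at 0 to 4 counts per library and was not tested. Of the genes that start transcription, Tfb2m, the factor that melts the promoter, rose from 14.3 and 13.3 CPM to 24.2 and 22.1 CPM (0.74, adjusted p = 0.0076, edgeR). Tfam, which packages mitochondrial DNA and bends the promoter, had a log2 fold change of 0.35 (adjusted p = 0.058, edgeR). Polrmt, the mitochondrial RNA polymerase, had one of -0.38 (adjusted p = 0.018, edgeR), short of the fold limit.

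Of the family of mitochondrial transcription termination factors, Mterf1b rose by 1.19 (adjusted p = 0.033, edgeR) and Mterf3 by 0.78 (adjusted p = 0.0095, edgeR). The level of Mterf1b was low, at 21 and 24 counts in control and 52 and 43 counts in surgery mice. The others did not pass the test, with log2 fold changes of 0.78 for Mterf1a (adjusted p = 0.073, edgeR), 0.40 for Mterf2 and 0.15 for Mterf4. Factor 1 of this family, which in the mouse has the copies Mterf1a and Mterf1b, is known to bind in the leucine tRNA gene behind 16S. Gtpbp10, a GTPase in large subunit assembly, rose by 0.67 (adjusted p = 0.038, edgeR). The 2 genes that fell act on 16S rRNA, Rpusd3, which has a log2 fold change of -1.01 (adjusted p = 0.032, edgeR), and Rcc1l, with -0.59 (adjusted p = 0.029, edgeR). The rRNA methyltransferases did not pass the test with the fold limit. Tfb1m, which modifies 12S, was at 0.29, Nsun4 at -0.04, and Mrm1, Mrm2 and Mrm3, which modify 16S, at -0.32, -0.40 and -0.14. The RNA-binding proteins Fastkd2, needed for 16S, and Lrpprc, which stabilises mRNAs, were at 0.24 and -0.06. After the length and GC correction, 0 of the 56 genes were called by edgeR in either direction, with 2 higher and 10 lower at an unadjusted p under 0.05. Of all 17144 genes, 70 were then called higher and 118 lower. Without control mouse 2 there were 2 genes called higher and 0 lower, and without surgery mouse 2 there were 0 called lower.

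The genes for proteins that bind the rRNAs in the ribosome were read against the 6.75% of all genes called higher and 2.25% called lower. Of 29 genes for small subunit proteins, which assemble on 12S, 0 rose by edgeR, by DESeq2 or at an unadjusted p under 0.05, and 1 fell (3.45%), Mrps24 by 0.76 on the log2 scale (adjusted p = 0.011, edgeR), with a median of -0.05 over the list and 8 lower at an unadjusted p under 0.05. Of 48 genes for large subunit proteins, which assemble on 16S, 3 rose and 2 fell (6.25% and 4.17%), with a median of -0.14 and 6 higher and 17 lower at an unadjusted p under 0.05. For the counts at an unadjusted p, in either subunit, the share of all genes was not analysed here. Mrpl1 rose by 0.90, Mrpl32 by 0.70 and Mrpl50 by 0.68, while Mrpl14 fell by 0.80 and Mrpl12 by 0.73. These 6 were named because they were the called ones, after their values were seen. The summed level of the large subunit genes was 1237 and 1241 CPM in control and 1195 and 1161 CPM in surgery mice, and that of the small subunit genes 708 and 716 against 684 and 647 CPM. Without control mouse 2 there was 1 large subunit gene called higher, and without surgery mouse 1 there were 2 small subunit genes called lower. After the length and GC correction 0 genes were called lower in the small subunit and 0 higher in the large.

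The genes outside the mitochondrial chromosome whose pattern over the 4 libraries was nearest to each rRNA were found among 10351 with a mean of at least 10 CPM, by the distance of the centred log2 CPM. For 16S the nearest were Gm16185 at a distance of 0.033, Lypla1 at 0.082, Gm10925 at 0.083, Ppig at 0.098 and Scoc at 0.15. For 12S they were Gm10925 at 0.29, Gm16185 at 0.32, 4930447C04Rik at 0.33, Snrnp27 at 0.33 and Lypla1 at 0.37, while 16S itself was at 0.30 from 12S. Gm10925 is the chromosome 1 pseudogene copy that shares 99.5% of the windows of mt-Atp6, and its counts were 518 and 451 in control and 1328 and 1329 in surgery mice. With 4 libraries, of which 2 are of each group, nearness largely restates the size of the difference between the groups.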

How the data were processed

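Hippocampal RNA of 2 control and 2 surgery mice was sequenced after oligo(dT) capture as 150 nt paired reads. The authors deposited gene-level counts, not normalized, aligned to mm10; the submitters' notes name Bowtie2 2.2.3, HISAT2 2.1.0, TopHat2 and HTSeq 0.6.0. The deposited table also holds the authors' scaled mean, fold changes and p-values, which were not used. Handling of strand and of reads with several matches is not given in the sources used here. Of 29300 gene identifiers, 29238 matched GENCODE M21.

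Counts were fitted with edgeR 4.0.16 (R 4.3.3), by TMM scaling, filterByExpr with a minimum count of 10, the quasi-likelihood test and Benjamini-Hochberg adjustment over 17144 genes. A gene was called where adjusted p was under 0.05 and the fold change was 1.5 or more, or 0.67 or less. DESeq2 1.42.0, other scalings, no filter, a replicate block, a length and GC correction (mgcv 1.9.3) and leaving out each mouse were alternatives. Shares have 95% Wilson intervals (scipy 1.17.1), and SDs are over 2 mice. Scripts were tested on simulated data.

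Genes were named by rule: the rRNAs, the mitochondrial mRNAs, tRNAs with a mean of at least 10 counts, called genes and 11 set members of the maturation list, 8 RNAs without a tail where listed, and the 5 nearest genes to each rRNA. Outside this rule, Mterf1a, Mterf2, Mterf4, CT010467.1, the called ribosomal protein genes and single cell type markers were also named. Members, lists and tests were chosen with earlier results of these data known. The edgeR and DESeq2 p-values set a difference against the spread between single mice, which is estimated in part from all genes together.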

Additional observations from a re-analysis of the deposited data

How the results depend on the processing

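Of the alternatives for the main values and counts, 136 stayed near the main value and 33 moved. A count stayed near if it was equal to the main count or within 1.5 times of it. Any other value stayed near if it moved by less than the SD between mice of a group. Part of these could not move: in the surgery over control ratios from counts per gene, gene length cancels. Also, mRNAs called lower and small subunit genes called higher were 0 in every setting. Of the alternatives for single genes, 129 kept their direction and their side of an adjusted p of 0.05, 8 lost the adjusted p and 4 turned. The 1.5-fold limit is not part of that tally: by it mt-Co1, mt-Nd5 and mt-Nd4 also changed call in some settings while the adjusted p stayed under 0.05. The length and GC correction had the widest effect. It gave 0.93 for mt-Rnr1 and 0.66 for mt-Rnr2 on the log2 scale, called 1 mitochondrial mRNA higher, and called 0 higher and 0 lower in the maturation list, 0 lower in the small subunit proteins, 0 higher in the large subunit proteins, and 0 higher and 0 lower in the RNAs without a tail. It turned mt-Nd4l to -0.046, mt-Nd4 to -0.34, mt-Nd5 to -0.14 and mt-Cytb to -0.21. Over all genes it called 70 higher and 118 lower, against 1158 and 386. With library totals alone 1377 rose and 224 fell over all genes, and 1 maturation gene fell. With DESeq2 876 rose and 371 fell over all genes, 2 maturation genes rose and 1 fell, and 0 RNAs without a tail rose. With no filter on low counts 2 maturation genes rose and 1 fell, and 3 RNAs without a tail rose and 0 fell. With DESeq2 size factors 2 RNAs without a tail fell.

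Without 1 mouse in turn, the log2 fold change of mt-Rnr1 ran from 1.60 to 2.05 and of mt-Rnr2 from 1.43 to 1.70. The ratio of shares ran from 3.15 to 4.29 for mt-Rnr1, 2.80 to 3.36 for mt-Rnr2, 2.94 to 3.71 for their sum and 1.58 to 1.77 for the mRNAs, and the ratio of rRNA to mRNA from 1.86 to 2.10. Mitochondrial mRNAs called higher ran from 6 to 10, maturation genes from 2 to 4 higher and 0 to 2 lower, small subunit genes from 1 to 2 lower, large subunit genes from 1 to 3 higher and 2 to 3 lower, and RNAs without a tail from 1 to 6 higher and 0 to 1 lower. The lone mouse of a group was then assumed to vary like the others.

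The labels give both groups the same replicate numbers, but nothing ties mice of the same number, and their deviations correlated at 0.22 over genes. With the replicate number as a block, mt-Rnr1 was at 1.83 and mt-Rnr2 at 1.57, 9 mRNAs were called higher, 2 RNAs without a tail were lower, and 1289 genes rose and 427 fell. With 2 mice a group, the SD of a group rests on 1 difference.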
